A study of Mus musculus with 7 samples.

Results

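A set of 10 genes of the retinal blood vessels was followed in the retina of SCA7 mice: *Cldn5*, *Esam*, *Cdh5*, *Pecam1* and *Plvap* of endothelial junctions and membranes, the VEGF ligand *Vegfa* with the receptors *Kdr* and *Flt1*, and the pericyte genes *Pdgfrb* and *Rgs5*. They were chosen by symbol for these roles, with earlier results of these data known, so counts of them describe the set only. All were found among the 52550 genes of the count table, and all 10 passed the filter on low counts that left 20128 genes to be tested. Total RNA was sequenced from 4 WT mice and 3 SCA7 140Q/140Q homozygous knock-in mice, all on C57BL/6J and 12.5 weeks old, with the 2 retinas of a mouse in 1 library. The paper analysed males and females, and the sample labels do not give the sex of a mouse. The knock-in mice carry an expanded CAG repeat in exon 1 of both *Atxn7* copies, expressed from the gene's own promoter in all cell types, vessels included, so an effect within vascular cells and an effect of the diseased neural retina on them cannot be told apart. The libraries held 56497675 to 96635832 counts on genes.

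The retina is fed from inside by its own capillaries, whose endothelial cells are sealed by tight junctions and wrapped by pericytes, and from outside by the choroid, a leaky capillary bed behind the retinal pigment epithelium (RPE). Claudin-5 closes the tight junctions of the inner blood-retina barrier, VE-cadherin (*Cdh5*) builds the adherens junctions, and ESAM and PECAM1 are adhesion molecules of endothelial contacts. VEGF-A is made by glia, neurons and the RPE and acts on endothelium through KDR, the main signalling receptor, and FLT1, which binds VEGF-A tightly and limits its action. Pericytes depend on PDGF-B from endothelium, which they sense through the receptor encoded by *Pdgfrb*.

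RefSeq promoters on GRCm38.p6, a patch release of mm10, were matched for 5 of the 10 genes (*Cldn5*, *Kdr*, *Flt1*, *Vegfa* and *Rgs5*) and not for *Pecam1*, *Cdh5*, *Pdgfrb*, *Plvap* and *Esam*. Those of *Kdr*, *Flt1*, *Cldn5* and *Rgs5* are shown because *Kdr* and *Flt1* are the paired VEGF receptors, of which *Kdr* passed the limits for upregulation and *Flt1* did not, *Cldn5* lay lower in SCA7 retina, and *Rgs5* is a pericyte gene that lay higher. Each run gives the 250 bases before the transcription start, 5′ to 3′ on the strand of the gene. Capitals mark a match to CAGGAA or CCGGAA on either strand. These are longer forms of GGAA, the core of sites for ETS factors, a family active in endothelium. The *Kdr* promoter is chr5:75978456-75978705 (minus strand), that of *Flt1* is chr5:147726012-147726261 (minus strand), that of *Cldn5* is chr16:18776597-18776846 (plus strand) and that of *Rgs5* is chr1:169655251-169655500 (plus strand).
Kdr: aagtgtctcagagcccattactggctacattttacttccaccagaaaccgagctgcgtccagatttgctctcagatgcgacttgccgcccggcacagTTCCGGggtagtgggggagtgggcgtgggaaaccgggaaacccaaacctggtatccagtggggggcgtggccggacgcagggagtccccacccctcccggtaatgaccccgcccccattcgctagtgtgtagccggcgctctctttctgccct
Flt1: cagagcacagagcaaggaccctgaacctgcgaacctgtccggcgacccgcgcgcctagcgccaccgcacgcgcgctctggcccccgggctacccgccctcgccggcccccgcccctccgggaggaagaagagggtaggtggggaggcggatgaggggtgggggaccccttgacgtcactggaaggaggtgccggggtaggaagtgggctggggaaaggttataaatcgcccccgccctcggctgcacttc
Cldn5: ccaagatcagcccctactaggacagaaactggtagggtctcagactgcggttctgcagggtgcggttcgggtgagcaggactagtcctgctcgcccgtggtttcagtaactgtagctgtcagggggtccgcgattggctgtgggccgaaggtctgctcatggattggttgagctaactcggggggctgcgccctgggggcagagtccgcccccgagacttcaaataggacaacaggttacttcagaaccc
Rgs5: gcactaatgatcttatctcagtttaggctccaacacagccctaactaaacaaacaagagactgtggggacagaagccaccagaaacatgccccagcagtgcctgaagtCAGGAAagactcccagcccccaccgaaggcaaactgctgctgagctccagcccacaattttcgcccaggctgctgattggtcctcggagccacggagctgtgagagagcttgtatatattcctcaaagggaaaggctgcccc

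The *Kdr* promoter held 1 match to CCGGAA and the *Rgs5* promoter 1 match to CAGGAA, and those of *Flt1* and *Cldn5* held neither. The shorter core GGAA was not counted, and it does occur in the *Flt1* window. Of all 32851 promoters in the RefSeq table, 12% held CCGGAA and 25.7% held CAGGAA in the same window. The GC box GGGCGG, found in 32.7% of promoters, occurred 2 times before *Kdr*, 3 times before *Flt1*, 1 time before *Cldn5* and not before *Rgs5*. The *Rgs5* promoter in turn held 1 forkhead core TAAACA and 1 SOX core ACAAT, which 12% and 27.7% of promoters hold, and the promoters of *Kdr*, *Flt1* and *Cldn5* held neither. The hypoxia response core ACGTG, in 16.6% of promoters, was in none of these 4 windows. Of the *Vegfa* promoters, which are not printed, that at chr17:46025164-46025413 held 1 match to ACGTG. The one at chr17:46032378-46032627 held 1 match to CAGGAA and none to ACGTG. All motifs were searched on both strands, and a match describes the letters of these windows and not the binding of a factor.

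All 10 genes were detected in every library. Per kb of transcript, as RPK (counts divided by DESeq2 size factors and by the median transcript length), *Vegfa* was highest in WT retina at 5680 ± 302 RPK (SD, n = 4). *Rgs5* followed at 2710 ± 151 RPK and *Flt1* at 2390 ± 289 RPK, and the WT ranges of these 2 genes overlapped. *Esam* (1920 ± 186 RPK) and *Kdr* (1810 ± 310 RPK) also overlapped, and both reached into the range of *Flt1*. Below them lay *Cldn5* at 735 ± 125 RPK, *Pecam1* at 369 ± 15.7 RPK and *Pdgfrb* at 182 ± 26.5 RPK, each apart from its neighbours. *Plvap*, a component of the diaphragms of fenestrated vessels such as those of the choroid, was at 122 ± 8.76 RPK and *Cdh5* at 118 ± 4.78 RPK, with overlapping ranges. The order depends on the length taken, since with the union of exons as length *Rgs5* led at 1435 RPK, *Vegfa* followed at 1159 RPK and *Kdr* at 808.2 RPK, above *Cldn5* at 734.7 RPK, *Esam* at 391.8 RPK and *Flt1* at 361 RPK.

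Between genotypes the 10 genes did not move together. *Kdr* and *Cdh5* rose in SCA7 retina by similar factors, *Rgs5* and *Pdgfrb* were higher by less than the limit for upregulation, *Cldn5* was lower by slightly less than the limit for downregulation, and *Pecam1*, *Vegfa* and *Plvap* were at nearly the same level in both genotypes. By the quasi-likelihood test of edgeR, with p-values adjusted by Benjamini-Hochberg over every gene tested, 2 of the 10 were upregulated (adjusted p under 0.05 and fold change, FC, SCA7/WT above 1.3), against 7.47% of all genes tested, and 0 were downregulated (FC under 0.7), against 7.91%. With the adjusted p alone, 4 of the 10 were higher in SCA7, against 14.2% of all genes, and 1 was lower, against 14.2% as well. In 4 genes every SCA7 library lay above every WT library, which 19.3% of all genes showed, and in 2 every SCA7 library lay below, which 18.3% showed. Their log2 fold changes had a median of 0.08, against −0.02 for all genes tested. In whole retina, fewer cells of a type and less RNA per cell cannot be told apart.

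**Figure D1:**
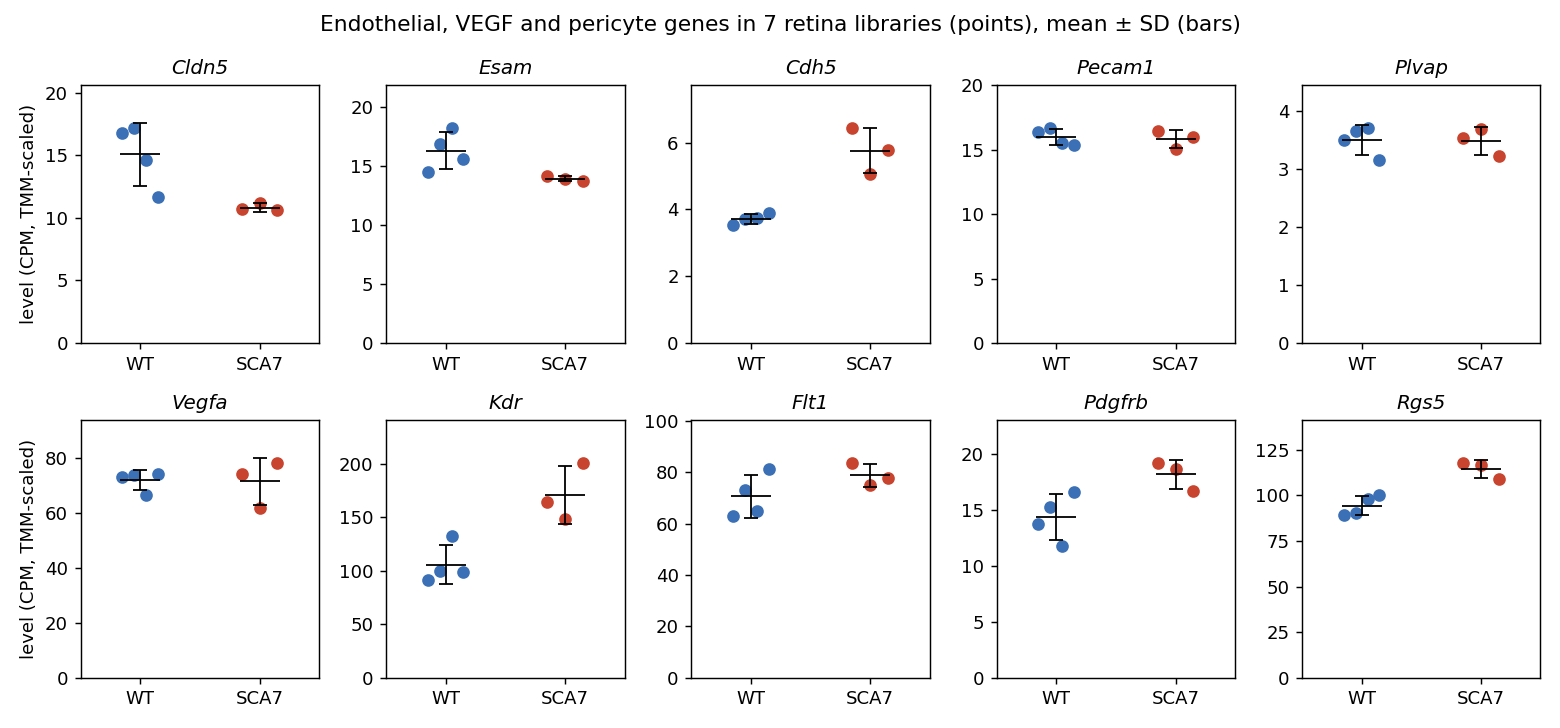
Level of the 10 vascular genes in each library, in CPM (counts scaled to a common library size by TMM), for 4 WT (blue) and 3 SCA7 (red) libraries, with the mean and SD as bars and all axes starting at 0. The SCA7 points of Cdh5, Kdr, Pdgfrb and Rgs5 sit above every WT point, those of Cldn5 and Esam below every WT point, and those of Pecam1, Plvap, Vegfa and Flt1 overlap the WT points.

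The junction genes went in different directions. *Cdh5* (ENSMUSG00000031871, chr8:104101625-104144511, plus strand) was at 3.54, 3.71, 3.73 and 3.90 CPM in the WT libraries and at 6.44, 5.07 and 5.77 CPM in the SCA7 libraries. The 4 WT values lay close together, with an SD of 0.149 CPM, and the lowest SCA7 value was well above the highest of them. *Cdh5* rose by 0.63 ± 0.11 on the log2 scale (SE), an FC of 1.55 with a 95% interval of 1.32 to 1.82 (edgeR adjusted p = 9.63e-04, exact two-sided permutation p = 0.0286, the smallest that the 35 splits of 7 libraries allow). The call was lost with 4 downregulated RPE markers (log2 fold change 0.69) or the globin genes (0.50) as a covariate, as described below. An antisense gene, *Gm29682*, overlaps the span of *Cdh5* but shares 0 exonic bases with it.

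*Cldn5* (ENSMUSG00000041378, chr16:18776847-18778262, plus strand) was at 16.8, 17.2, 14.6 and 11.7 CPM in the WT libraries and at 10.7, 11.2 and 10.6 CPM in the SCA7 libraries. The SCA7 values were nearly equal (SD 0.337 CPM, n = 3) and all below the WT values, which spread more widely (SD 2.54 CPM, n = 4), with WT replicate 4 only slightly above the SCA7 libraries. The log2 fold change was −0.48 ± 0.12 (SE), an FC of 0.719 (95% interval 0.601 to 0.86, edgeR adjusted p = 0.0109, exact two-sided permutation p = 0.0571), so *Cldn5* passed the edgeR test without reaching the FC limit of 0.7. Without WT replicate 4 the log2 fold change was −0.58, past that limit, and with scaling by total counts alone it was −0.29 and missed the test (edgeR adjusted p = 0.0772, range 1.04e-06 to 0.658 over 21 alternative settings). *Esam* (ENSMUSG00000001946, chr9:37528078-37538319, plus strand) was at 14.5, 16.8, 18.2 and 15.6 CPM in the WT libraries and at 14.1, 13.9 and 13.7 CPM in the SCA7 libraries. The SCA7 values were again all below WT and close together, but the difference missed the test (log2 fold change −0.23 ± 0.08 SE, edgeR adjusted p = 0.0556, range 0.0147 to 0.741 over 21 alternative settings).

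*Pecam1* (ENSMUSG00000020717, chr11:106654217-106750628, minus strand), a general endothelial marker, was at 16.4, 16.7, 15.5 and 15.4 CPM in the WT libraries and at 16.5, 15.1 and 16 CPM in the SCA7 libraries. The groups overlapped throughout, with an FC of 0.993 and a 95% interval of 0.897 to 1.1 (edgeR adjusted p = 0.925). *Plvap* (ENSMUSG00000034845, chr8:71497765-71511752, minus strand) was at 3.50, 3.65, 3.71 and 3.15 CPM in the WT libraries and at 3.53, 3.70 and 3.22 CPM in the SCA7 libraries. Its FC was 0.993 as well, with a wider interval of 0.839 to 1.18 (edgeR adjusted p = 0.959), and its span overlaps that of *Gtpbp3* on the other strand without shared exonic bases. The FC of *Cdh5*, 1.55, lies outside both intervals. The signs of the differences of *Pecam1*, *Plvap* and *Vegfa*, all near 0, turn when libraries are scaled by total counts alone (0.18 for each on the log2 scale).

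**Figure D2:**
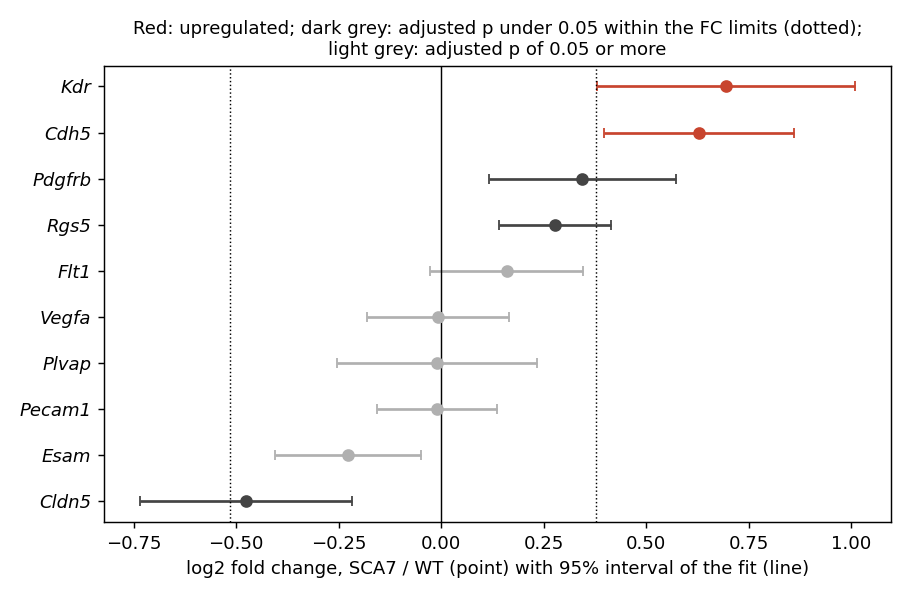
Log2 fold change (SCA7/WT) of the 10 vascular genes with the 95% interval of the edgeR fit, and dotted lines at the FC limits of 0.7 and 1.3. Kdr (0.69) and Cdh5 (0.63) are past the upper limit, Pdgfrb (0.34) and Rgs5 (0.28) lie above 0 within it, and Cldn5 (−0.48) lies just within the lower limit.

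Of the VEGF receptors, *Kdr* (ENSMUSG00000062960, chr5:75932827-75978458, minus strand) was at 91.3, 100, 132 and 98.7 CPM in the WT libraries and at 164, 148 and 201 CPM in the SCA7 libraries. The groups did not overlap, and the highest library of each genotype, WT replicate 3 and SCA7 replicate 3, stood apart from the rest of its group. *Kdr* rose by 0.69 ± 0.14 on the log2 scale (SE), an FC of 1.62 with a 95% interval of 1.3 to 2.01 (edgeR adjusted p = 0.00555, exact two-sided permutation p = 0.0571). With marker genes of the retinal pigment epithelium (RPE) as a covariate, the log2 fold change of *Kdr* was 0.42 for all 10 markers, 0.73 for the 6 that were not downregulated and −0.17 for the 4 downregulated ones, where the call was lost. The levels of those 4 do not overlap between genotypes, so that fit cannot separate them from genotype. The call was also lost with the globin genes as a covariate (0.69). *Kdr* RNA is also found in some retinal neurons, so its level in whole retina need not be that of endothelium alone.

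*Flt1* (ENSMUSG00000029648, chr5:147561604-147726011, minus strand) was at 62.9, 73.2, 65.0 and 81.4 CPM in the WT libraries and at 83.8, 75.1 and 77.8 CPM in the SCA7 libraries. The groups overlapped because WT replicate 4 exceeded 2 SCA7 libraries, and the FC was 1.12 (95% interval 0.981 to 1.27, edgeR adjusted p = 0.189). Without WT replicate 4 the log2 fold change was 0.23 with an edgeR adjusted p of 0.0238 (range 0.00745 to 0.719 over 21 alternative settings), still within the FC limit. The ligand *Vegfa* (ENSMUSG00000023951, chr17:46016993-46032369, minus strand) was at 73.0, 73.9, 66.5 and 74.4 CPM in the WT libraries and at 74.4, 61.9 and 78.4 CPM in the SCA7 libraries. Its lowest and its highest value were both in SCA7 libraries, and the FC was 0.995 (95% interval 0.882 to 1.12, edgeR adjusted p = 0.953).

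Both pericyte genes were higher in SCA7 retina. *Rgs5* (ENSMUSG00000026678, chr1:169655501-169695813, plus strand), a regulator of G-protein signalling, was at 89.4, 90.4, 97.8 and 100 CPM in the WT libraries and at 118, 117 and 109 CPM in the SCA7 libraries. The groups did not overlap, with an FC of 1.21 (95% interval 1.1 to 1.33, edgeR adjusted p = 0.00615, exact two-sided permutation p = 0.0286). The edgeR adjusted p of *Rgs5* was under 0.05 in 20 of 21 alternative settings. It was 0.343 with the 4 downregulated RPE markers as a covariate (log2 fold change 0.29). *Pdgfrb* (ENSMUSG00000024620) was at 13.7, 15.2, 11.8 and 16.6 CPM in the WT libraries and at 19.2, 18.6 and 16.7 CPM in the SCA7 libraries. Here too the groups did not overlap, but WT replicate 4 and SCA7 replicate 3 nearly met, and the FC was 1.27 (95% interval 1.08 to 1.49, edgeR adjusted p = 0.0284, exact two-sided permutation p = 0.0571). With 1 library left out, the edgeR adjusted p of *Pdgfrb* stayed under 0.05 in 4 of 7 fits and ranged from 0.00572 to 0.115, and it was above 0.05 without WT replicate 1, SCA7 replicate 1 or SCA7 replicate 2. Without WT replicate 4 its log2 fold change was 0.42 and without SCA7 replicate 3 it was 0.40, both past the limit for upregulation.

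A ratio to *Pecam1* within each library removes the scaling between libraries. The log2 ratio of *Kdr* to *Pecam1* was 2.71 ± 0.27 in WT (SD, n = 4) and 3.42 ± 0.20 in SCA7 retina (SD, n = 3), a difference of 0.71, with all SCA7 libraries above all WT libraries. The log2 ratio of *Cdh5* differed by 0.63 and that of *Rgs5* by 0.29, also without overlap, and that of *Cldn5* differed by −0.45, with all SCA7 libraries below all WT libraries. The log2 ratios of *Pdgfrb* (a difference of 0.37), *Flt1* (0.18) and *Esam* (−0.21) overlapped between genotypes, as did those of *Vegfa* and *Plvap*, whose means differed by less than 0.01. Relative to *Pecam1*, *Cdh5* and *Cldn5* thus went in opposite directions without any scaling factor. The ratios do not show whether *Pecam1* itself changed.

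**Figure D3:**
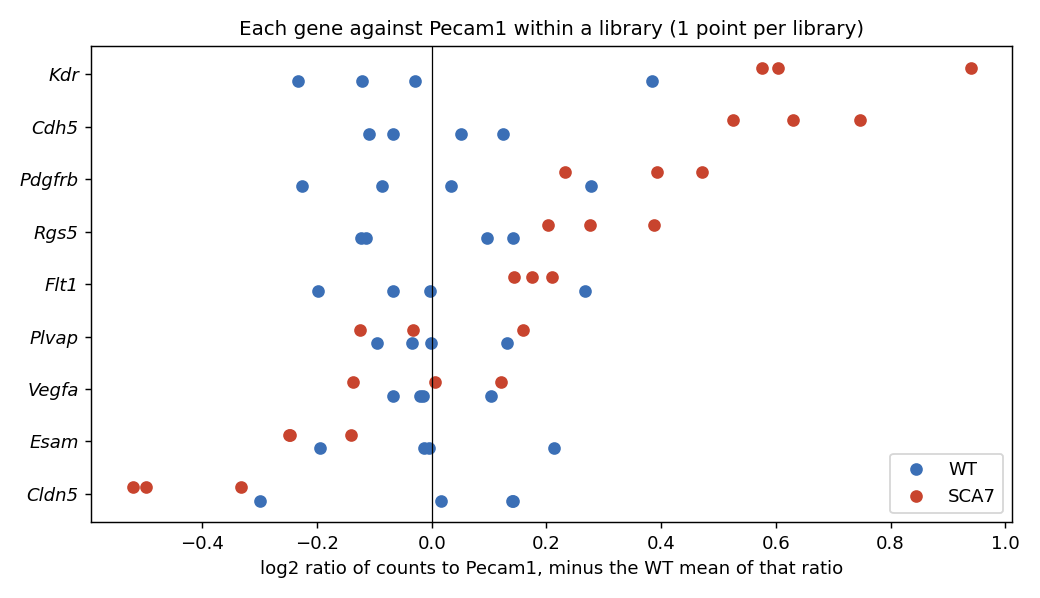
Log2 ratio of each gene's counts to those of Pecam1 in the same library (0.5 counts added), shown relative to the WT mean of that ratio, with 1 point per library (WT blue, SCA7 red). Kdr, Cdh5 and Rgs5 lie to the right of every WT point in all 3 SCA7 libraries and Cldn5 to the left, while Pdgfrb, Flt1, Plvap, Vegfa and Esam overlap.

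RPE can adhere to a dissected retina, and its markers did not move as a group. Of 10 RPE markers, 4 were downregulated (*Rpe65*, *Ttr*, *Rdh5* and *Lrat*), with summed levels of 68.1 to 138 CPM in WT and 15.3 to 35.6 CPM in SCA7 libraries. The other 6 (*Best1*, *Pmel*, *Tyr*, *Tyrp1*, *Mlana* and *Slc45a2*) overlapped between genotypes, with sums of 12.7 to 26.1 CPM in WT and 7.96 to 21.9 CPM in SCA7 libraries, and 1 of them (*Slc45a2*) was upregulated. The sum over all 10 was 149, 164, 81.9 and 144 CPM in the WT libraries and 56.9, 49.9 and 23.3 CPM in the SCA7 libraries, of which the 4 downregulated markers made up 83.1% to 91.5% in WT and 56.2% to 65.8% in SCA7 libraries. The library with the lowest sum of each genotype, WT replicate 3 and SCA7 replicate 3, was the one with the highest *Kdr*. Why these libraries stood apart was not tested.

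Marker levels (mean log2 CPM) were added to the fit as a covariate after the data were seen, and the values depended on the markers taken. With all 10 markers the log2 fold change of *Kdr* was 0.42 (edgeR adjusted p = 0.0385, range 2.18e-09 to 0.651 over 21 settings) and that of *Cdh5* was 0.64 (edgeR adjusted p = 0.012, range 2.03e-06 to 0.183), both still upregulated, and that of *Cldn5* was −0.40 (edgeR adjusted p = 0.117, range 1.04e-06 to 0.658). With the 6 overlapping markers these were 0.73 for *Kdr*, 0.63 for *Cdh5* and −0.49 for *Cldn5*, all past the test (edgeR adjusted p = 9.29e-04, 0.00235 and 0.014). With the 4 markers picked because they were downregulated, whose levels do not overlap between genotypes, they were −0.17 for *Kdr*, 0.69 for *Cdh5* and −0.28 for *Cldn5*, none past the test (edgeR adjusted p = 0.651, 0.183 and 0.658). The level of these 4 genes and the genotype cannot be told apart in these libraries.

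**Figure D4:**
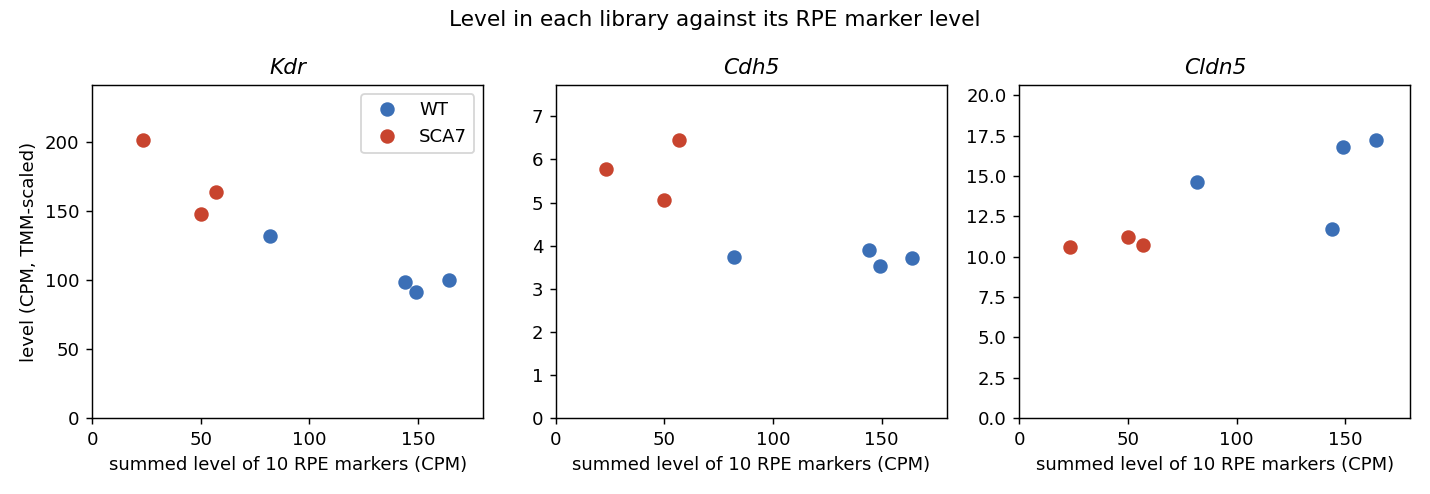
Level of Kdr, Cdh5 and Cldn5 (CPM) in each library against the summed level of 10 RPE markers (CPM), most of it from Rpe65, Ttr, Rdh5 and Lrat, for 4 WT (blue) and 3 SCA7 (red) libraries. The WT library with the lowest sum (81.9 CPM) has the highest Kdr of its genotype (132 CPM) but a Cdh5 level (3.73 CPM) like that of the other WT libraries.

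Red blood cell genes, a sign of blood left in the vessels, summed to 54.5 to 76.8 CPM in WT and 30.6 to 61.7 CPM in SCA7 libraries, and 1 of 5 tested was downregulated (*Hba-a2*). With the globin genes as a covariate, also chosen after the data were seen, the log2 fold change of *Cdh5* was 0.50 (edgeR adjusted p = 0.0505, range 2.03e-06 to 0.183 over 21 settings) and that of *Kdr* 0.69 (edgeR adjusted p = 0.0838), neither past the test. In that fit *Cldn5* (−0.48, edgeR adjusted p = 0.0931) and *Pdgfrb* (0.29, edgeR adjusted p = 0.226) also missed the test, and *Rgs5* (0.34, edgeR adjusted p = 0.0312) passed it. All 8 microglia and macrophage markers were upregulated, with sums of 72.7 to 90.1 CPM in WT and 145 to 161 CPM in SCA7 libraries, and all 8 rod markers were downregulated, with sums of 59200 to 61600 CPM in WT and 15800 to 20500 CPM in SCA7 libraries. Fibroblast markers summed to 35.2 to 41.5 CPM in WT and 39 to 47 CPM in SCA7 libraries, with 1 of 8 upregulated (*Pdgfra*). Müller glia markers summed to 3760 to 4700 CPM in WT and 3770 to 3980 CPM in SCA7 libraries, most of it from *Glul*, which was lower with a log2 fold change of −0.36 (edgeR adjusted p = 0.0126). Of the 9 Müller glia markers 5 were higher with an adjusted p under 0.05, 1 of them past the limit (*Vim*), and their median was 0.30. None of 6 horizontal cell markers was past both limits, with sums of 269 to 295 CPM in WT and 243 to 254 CPM in SCA7 libraries. Of these, *Calb1* was lower in all SCA7 than in all WT libraries, with a log2 fold change of −0.44 (edgeR adjusted p = 1.95e-04) that was within the fold limit. No marker in these lists was at 0 in every library, and the part of these shifts in the vascular values was not tested.

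Around the 10 genes, 107 further genes of 8 vascular lists were examined, of which 99 were tested, 3 were downregulated and 21 upregulated, and the log2 fold changes had a median of 0.12. Over all genes tested, 7.47% were upregulated, 7.91% were downregulated and the median was −0.02, and the counts of each list stand against these shares. The lists too were chosen with earlier results of these data known. The 8 genes not tested had 18 counts or fewer in every library. For single genes of these lists, the only RPE covariate given is that of the 4 downregulated markers. Their level cannot be told apart from genotype, so a call lost with it is not evidence about that gene. Of 24 other endothelial identity genes, 6 were upregulated and 0 downregulated, with a median of 0.29. *Vwf*, the clotting glycoprotein stored by endothelial cells, was at 9.14, 10.2, 10.6 and 8.75 CPM in the WT libraries and at 38.5, 26.0 and 31.8 CPM in the SCA7 libraries. Every SCA7 value was over the WT values by a wide margin, with a log2 fold change of 1.73 ± 0.12 (SE, edgeR adjusted p = 1.94e-06). *Emcn*, endomucin of the endothelial surface, rose by 0.85 ± 0.17 (SE, edgeR adjusted p = 0.00299), from a WT mean of 2.19 ± 0.551 CPM (SD) to 3.94 ± 0.386 CPM, and with the 4 downregulated RPE markers as a covariate its log2 fold change was 0.35 and missed the test (edgeR adjusted p = 0.671). Its highest WT value, 2.94 CPM, was in replicate 3. The other 4 that rose were *Tie1*, *Eng*, *Mmrn2* and *Cd34*, with log2 fold changes of 0.45 to 0.79.

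**Figure D5:**
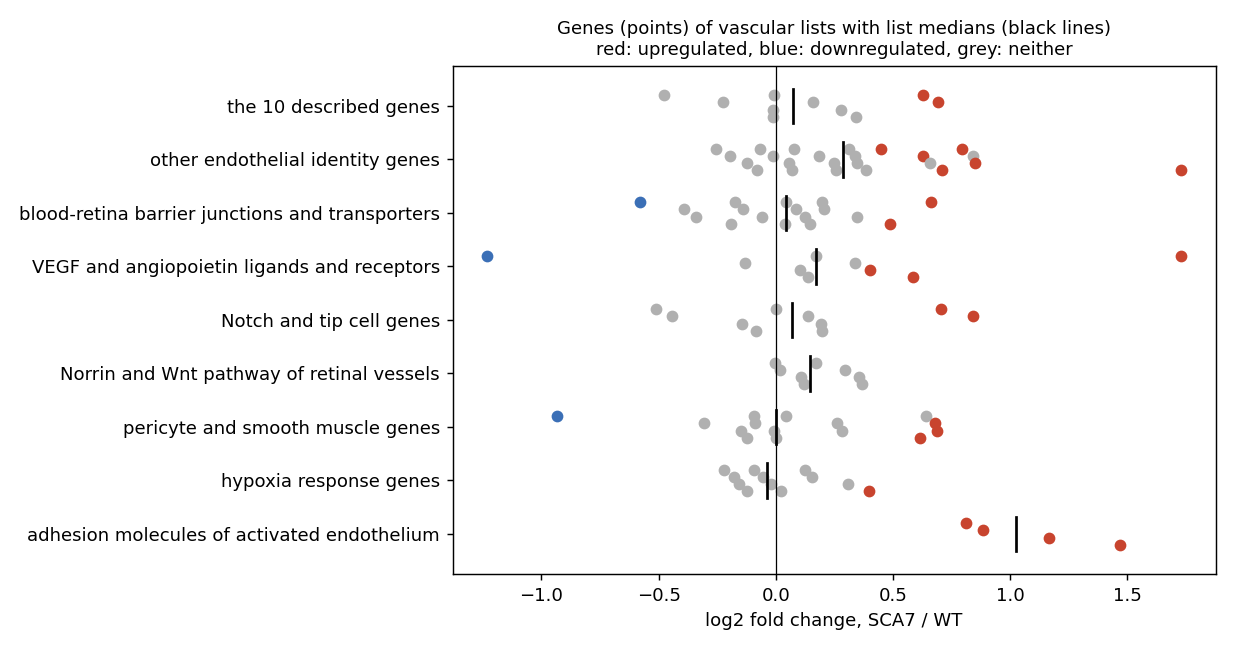
Log2 fold change (SCA7/WT) of each tested gene in 8 vascular lists and of the 10 described genes, with the list median as a black line, upregulated genes in red, downregulated genes in blue and others in grey. Vwf and Pgf lie farthest to the right (both 1.73), all 4 tested adhesion molecules are upregulated, and Angpt4 lies farthest to the left (−1.23).

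Of 17 barrier junction and transporter genes, 2 were upregulated and 1 downregulated, with a median of 0.05, counts close to the shares over all genes tested. *Lsr*, a receptor at tricellular junctions, rose by 0.49 ± 0.11 (SE, edgeR adjusted p = 0.00534), from 5.03 ± 0.61 to 7.06 ± 0.353 CPM (SD), a call lost with the 4 downregulated RPE markers (log2 fold change 0.76) or the globins (0.45) as a covariate. *Cav1*, the coat protein of caveolae, which Müller glia also express, was at 53.7, 60.1, 90.8 and 62.9 CPM in the WT libraries and at 107, 99.1 and 112 CPM in the SCA7 libraries. As with *Kdr*, its highest value in each genotype was in replicate 3, the library with the lowest RPE marker sum. *Cav1* rose by 0.66 ± 0.17 (SE, edgeR adjusted p = 0.0208), a call lost without WT replicate 4, SCA7 replicate 1 or SCA7 replicate 3 (log2 fold change 0.57 to 0.85 over the 7 fits with 1 library left out) and without the low-count filter (edgeR adjusted p = 0.0777, against a range of 3.86e-07 to 0.785 over all settings). The call was also lost with the 4 downregulated RPE markers (log2 fold change −0.16) or the globins (0.84) as a covariate. *Slc16a1*, a lactate and monocarboxylate carrier that the RPE expresses as well, fell by 0.58 (SE 0.08, edgeR adjusted p = 1.85e-04), from 371 ± 16.7 to 249 ± 25.7 CPM (SD), and was within the limits with scaling by total counts alone.

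Among 9 tested genes of the VEGF and angiopoietin pathways, 3 were upregulated (*Pgf*, *Nrp1* and *Angpt1*) and 1 downregulated (*Angpt4*), with a median of 0.17. *Pgf*, placental growth factor, a ligand of FLT1, was at 0.786, 0.727, 0.900 and 0.918 CPM in the WT libraries and at 2.91, 2.85 and 2.53 CPM in the SCA7 libraries. The groups were far apart, with a log2 fold change of 1.73 ± 0.14 (SE, edgeR adjusted p = 3.76e-06). *Nrp1*, a VEGF co-receptor also used by axons, rose by 0.58 ± 0.07 (SE, edgeR adjusted p = 1.06e-04), from 10.5 ± 0.319 to 15.7 ± 1.11 CPM (SD), and was not past the test with the 4 downregulated RPE markers as a covariate (log2 fold change 0.55). The log2 fold change was 0.17 for the ligand *Vegfb* (edgeR adjusted p = 0.0787), −0.13 for *Vegfc* (edgeR adjusted p = 0.56), which turns to 0.06 with scaling by total counts alone, and 0.11 for the VEGF-C receptor *Flt4* (edgeR adjusted p = 0.509). *Angpt4*, an angiopoietin, fell by 1.23 (SE 0.28, edgeR adjusted p = 0.00716), from 1.42 ± 0.49 to 0.618 ± 0.165 CPM (SD), a call lost with the 4 downregulated RPE markers (log2 fold change 0.06) or the globins (−1.12) as a covariate.

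Of 10 tested Notch and tip cell genes, 2 were upregulated and 0 downregulated, with a median of 0.07. *Notch1*, a receptor that Müller glia also carry, rose by 0.84 ± 0.09 (SE, edgeR adjusted p = 4.74e-05), from 21.4 ± 2.09 to 38.4 ± 4.8 CPM (SD), and *Hey2*, a transcriptional target of Notch, rose by 0.71 ± 0.07 (SE, edgeR adjusted p = 2.83e-05). The Notch ligand *Jag1*, picked after its values were seen, had a log2 fold change of −0.51 and an FC of 0.701, just short of the limit (edgeR adjusted p = 4.69e-04). None of the 8 genes of the Norrin and Wnt pathway, which maintains the retinal barrier, was past the limits in either direction by the edgeR test, 1 of them was higher with an adjusted p under 0.05, and their median was 0.15.

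In the list of 15 tested pericyte and smooth muscle genes, 3 were upregulated and 1 downregulated, against 7.47% and 7.91% of all genes tested, with a median of 0.00. *Abcc9*, the sulfonylurea receptor subunit of pericyte potassium channels, was at 6.37, 6.00, 4.80 and 8.20 CPM in the WT libraries and at 10.8, 10.7 and 9.29 CPM in the SCA7 libraries. It rose by 0.69 ± 0.15 (SE, edgeR adjusted p = 0.00452), and as with *Pdgfrb* its lowest and highest WT values were in replicates 3 and 4 and its lowest SCA7 value in replicate 3. With the globins as a covariate the log2 fold change of *Abcc9* was 0.63 and missed the test. *Ndufa4l2* rose by 0.68 ± 0.14 (SE, edgeR adjusted p = 0.00297), from 1.33 ± 0.116 to 2.13 ± 0.167 CPM (SD), and missed the test with the 4 downregulated RPE markers as a covariate (log2 fold change 0.86). The third upregulated gene was *Mcam*. *Vtn*, vitronectin, which photoreceptors also express, fell by 0.94 (SE 0.09, edgeR adjusted p = 1.43e-05), from 1100 ± 61.1 to 576 ± 71.3 CPM (SD). The pericyte ligand *Pdgfb* had means of 3.52 ± 0.245 (WT) and 3.23 ± 0.27 CPM (SCA7, SD), with a log2 fold change of −0.12 (edgeR adjusted p = 0.467) that turns to 0.07 with scaling by total counts alone.

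Of 12 tested hypoxia response genes, a response to which *Vegfa* also belongs, 1 was upregulated and 0 downregulated, with a median of −0.04. *Epas1*, a hypoxia-inducible factor subunit of endothelium and glia, rose by 0.40 ± 0.10 (SE, edgeR adjusted p = 0.00901), from 53.8 ± 7.69 to 70.9 ± 3.25 CPM (SD), an FC of 1.32 that was not past the limits without WT replicate 3 or SCA7 replicate 3 (log2 fold change 0.33 to 0.49 over the 7 fits with 1 library left out), with TMM computed without downregulated genes (0.37), or with the 4 downregulated RPE markers (0.67) or the globins (0.26) as a covariate. All 4 tested adhesion molecules of activated endothelium were upregulated, with a median of 1.03, while *Sele*, *Selp* and *Madcam1* had too few counts to be tested. *Icam1*, a ligand of leukocyte integrins, rose by 1.47 ± 0.20 (SE, edgeR adjusted p = 2.29e-04), from 1.13 ± 0.315 to 3.14 ± 0.539 CPM (SD). *Cd44*, the hyaluronan receptor, rose by 1.17 ± 0.11 (SE, edgeR adjusted p = 9.45e-06), from 9.26 ± 0.433 to 20.9 ± 3.9 CPM (SD). *Vcam1* and *Lgals9* were the other two, and these adhesion molecules are also expressed by glia or immune cells, whose marker levels are given above.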

How the data were processed

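Total RNA, depleted of ribosomal RNA, was sequenced as stranded libraries with single reads of 50 bases, 1 library per mouse. The authors mapped reads to mm10 with TopHat2 2.0.14 and Bowtie2 2.1.0, counted them per gene of Ensembl release 90 with HTSeq 0.6.1 (tools and versions as in the submitters' processing notes), and deposited raw counts, without normalization. The HTSeq mode and strand option are not given in the sources used here. Symbols and positions came from GENCODE M21 (GRCm38), matched for 52403 of 52550 genes.

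Genes were kept by filterByExpr of edgeR 4.0.16 (R 4.3.3), grouped by genotype, scaled by TMM, and compared with the robust quasi-likelihood test without covariates. Benjamini-Hochberg adjustment ran over all 20128 genes tested. Depth was 56497675 to 96635832 counts, where 1 count is 0.0103 to 0.0177 CPM, and errors are SD over mice or SE of the fit. For exact permutation tests, 0.01 CPM was added before taking log2.

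The 10 genes and the lists were chosen with earlier results of these data known. Also named are *Vegfb*, *Vegfc*, *Pgf*, *Nrp1*, *Flt4* and *Pdgfb*, and per vascular list the 2 largest increases and decreases among called genes of at least 1 CPM without overlap between genotypes. Other genes are named where a count of called genes is given.

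Alternatives were DESeq2 1.42.0 (size factors in edgeR, and its Wald test), upper quartile factors, total counts, limma-voom (limma 3.58.1), no filter beyond 1 count, at least 10 counts in every library, a replicate block (without WT replicate 4), an *Xist* covariate, no FC threshold, an adjusted p under 0.01, each library left out, and, for levels, TMM factors and exon union length. Added after seeing the data were covariates of RPE markers (4, 6 or all 10) and of globins and TMM without downregulated genes. The tests were checked on simulated counts with log2 changes of 1, larger than that of any of the 10 genes. There edgeR recovered 155 of 195 changed genes and called 14 unchanged ones. Smaller changes were not simulated.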

Additional observations from a re-analysis of the deposited data

How the results depend on the processing

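The upregulation of *Kdr* and of *Cdh5* was kept in 19 of 21 other fits each, the exceptions being the covariate of the 4 downregulated RPE markers (*Kdr* −0.17, *Cdh5* 0.69) and the globin covariate (*Kdr* 0.69, *Cdh5* 0.50), both added after the data were seen. The level of those 4 markers cannot be told apart from the genotype. Scaling by total counts alone moved the median of all genes tested from −0.02 to 0.17 (log2). Under it the median of the 10 genes was 0.26 and 4 of them were upregulated, with *Pdgfrb* at 0.53 and *Rgs5* at 0.47, while *Cldn5* (−0.29) missed the test. *Pecam1*, *Vegfa* and *Plvap* changed sign and were each at 0.18, as did *Vegfc* (0.0552) and *Pdgfb* (0.0689), and 37 genes of the 8 lists were upregulated. *Pecam1*, *Vegfa* and *Plvap* also changed sign under the DESeq2 Wald test (0.0018, 0.0056 and 0.0022), without the low-count filter (0.0106, 0.0132 and 0.0115), with the 4-marker RPE covariate (0.0895, 0.0095 and 0.0549) and, for *Plvap*, the globin covariate (0.0911). With all 10 RPE markers *Pecam1* (0.0095) and *Plvap* (0.0612) changed sign and *Pdgfrb* was upregulated (0.53), and with the other 6 *Vegfa* (0.0073) changed sign. The 4-marker covariate left 1 of the 10 genes upregulated, *Pdgfrb* at 0.93, and 10 genes of the 8 lists, and turned *Cav1* to −0.16 and *Angpt4* to 0.0558. The globin covariate left 0 of the 10 upregulated. With *Xist*, an RNA of female cells, as a covariate *Pdgfrb* was upregulated at 0.41. In that fit *Kdr* was at 0.63 (edgeR adjusted p = 3.67e-06) and *Cav1* at 0.61 (edgeR adjusted p = 9.82e-04), both still upregulated. Without an FC threshold *Cldn5* (−0.48) counted as lower, making 1 of the 10, *Pdgfrb* (0.34) and *Rgs5* (0.28) as higher, making 4, and 6 genes of the lists were lower. The cause of these changes was not tested.

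With each library left out in turn, *Cldn5* ranged from −0.58 to −0.41, *Pecam1* from −0.0346 to 0.0241, *Vegfa* from −0.078 to 0.0875, *Plvap* from −0.0583 to 0.047 and *Pdgfrb* from 0.26 to 0.42, and 0 to 1 of the 10 genes were downregulated.

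Deviations of libraries with the same replicate number correlated at 0.0067, 0.3062 and 0.1265. That of replicate 2 was the highest between any WT and SCA7 library, while SCA7 replicate 1 correlated best with WT replicate 4. In the sample titles, the numbers before the genotype lie close together within a replicate, and that of WT replicate 4 lies apart. Their meaning is not given. The main fit took no pairs, and whether the mice were paired cannot be settled here. The fit with the replicate number as a block also left out WT replicate 4, which has no partner. In it *Cldn5* was downregulated (−0.58), which made 1 of the 10, *Pdgfrb* was upregulated (0.43) and *Vegfa* was at 0.0024. Leaving out WT replicate 4 with no block gave the same calls (−0.58, 0.42 and 0.008), so the changes in calls cannot be put down to the block. The block did change the edgeR adjusted p, from 0.00023 to 1.04e-06 for *Cldn5*, 0.00572 to 6.58e-05 for *Pdgfrb* and 0.0293 to 2.18e-09 for *Kdr*. For *Pecam1*, *Vegfa* and *Plvap* it stayed far above 0.05 in both fits. A library held 198 to 594 counts for *Plvap* and *Cdh5*, so counting error adds to the spread between mice.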
